A study of Mus musculus with 6 samples.

Results

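Regulatory T (Treg) cells from mouse tumours were divided by how many Treg cells of their clone were found. The genes of expanded clones were set against those of clones with 1 such cell. A Treg cell was taken as a cell with a T cell receptor (TCR) beta chain and a Cd4 transcript, without Cd8a or Cd8b1, and with at least 2 of the 5 transcripts Foxp3, Ikzf2, Il2ra, Ikzf4 and Lrrc32. Cells of 1 sample with the same receptor form a clonotype. Clonotypes with at least 3 gated cells were called expanded and those with 1 gated cell single. A single clonotype can hold further cells outside the gate. Of 41679 cell barcodes, 1840 passed this gate, in 1060 clonotypes. The expanded class held 799 cells in 145 clonotypes and the single class 789 cells, while 252 cells in 126 clonotypes of 2 cells belonged to neither. Cells were thus chosen by measured transcripts and receptors, so the levels of Cd4, Cd8a, Cd8b1 and the 5 Treg transcripts, and clone size itself, are given only as a description.

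Leukocytes (CD45+) had been sorted from MC38 tumours, a mouse colon carcinoma line grown under the skin, 25 days after inoculation, and sequenced with 5′ droplet RNA and TCR libraries. The 3 ctr samples came from mice with wild-type Ctcf in Treg cells and the 3 cko samples from mice with a tamoxifen-inducible Ctcf knockout in Treg cells. The Cre driver, the deleted exons, strain, age and whether ctr mice received tamoxifen are not given in the sources used here. The labels call the samples biological replicates, and p-values measure the spread between them.

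Each T cell clone descends from 1 cell that rearranged its receptor genes, so cells with the same receptor nucleotides are taken as relatives. Where the receptor segments join, bases are trimmed and added without a template. The CDR3, which spans this join, is the most variable part of the receptor. Treg cells restrain other immune cells through Foxp3-dependent genes, and in tumours they commonly carry Ccr8, Tnfrsf9 and Tigit. CTCF is a DNA-binding protein that anchors chromatin loops.

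The receptors of the largest clonotypes are shown first, because the clones define the comparison. Each TRB CDR3 is written 5′ to 3′, and capitals mark bases that matched neither the V nor the J segment of the GRCm38 annotation. The D segment between them was not matched, so capitals can hold its bases as well as added ones.
ctr 1, 20 cells, TRBV3 with TRBJ2-3: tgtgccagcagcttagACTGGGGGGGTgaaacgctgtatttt
ctr 2, 23 cells, TRBV1 with TRBJ2-3: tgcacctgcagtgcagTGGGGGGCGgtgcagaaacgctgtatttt
ctr 3, 27 cells, TRBV5 with TRBJ2-3: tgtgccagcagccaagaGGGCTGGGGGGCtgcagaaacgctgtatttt
cko 1, 14 cells, TRBV20 with TRBJ2-5: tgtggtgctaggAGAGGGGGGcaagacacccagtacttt
cko 2, 7 cells, TRBV12-2+TRBV13-2 with TRBJ2-7: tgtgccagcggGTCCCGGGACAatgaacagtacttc
The largest clonotype of cko 3, 13 cells of TRBV10 with TRBJ2-5, is left out of these lines because its V segment matched in only the first bases. It had no Foxp3 UMI and is described below.

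Expanded clonotypes held a large part of the Treg cells in every sample but cko 2. Their share of gated cells was 46.0%, 49.4% and 53.8% in ctr 1 to 3 and 42.6%, 12.5% and 34.0% in cko 1 to 3. The ctr samples had more gated cells (374, 409 and 487) than the cko samples (162, 208 and 200), and a clone is seen 3 times more readily among more cells. At an equal number of 162 cells the expected shares were 27.6%, 32.5% and 32.8% in ctr and 42.6%, 9.40% and 30.9% in cko, so the genotypes overlapped. The expanded class of cko 2 rested on only 26 cells in 7 clonotypes.

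**Figure D1:**
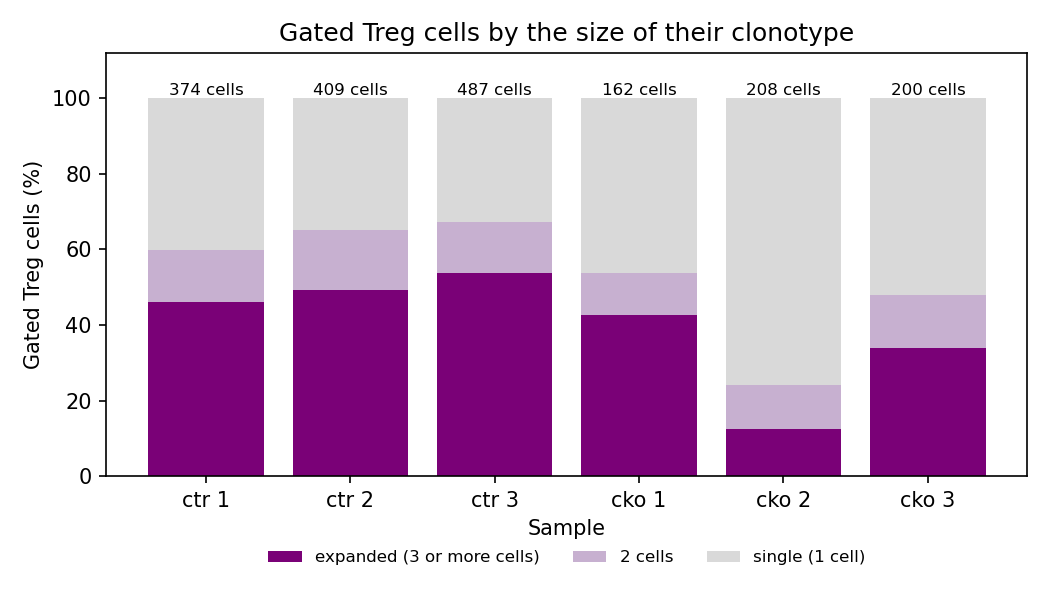
Share of gated Treg cells (y axis, %) in expanded clonotypes, clonotypes of 2 cells and single clonotypes in each sample (x axis), with the number of gated cells above each bar. Expanded clonotypes held 46.0% to 53.8% of ctr cells and 12.5% to 42.6% of cko cells.

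The cko 1 and cko 3 samples carried the same clones. They shared 32 paired Treg clonotypes with identical receptor nucleotides, which held 52.5% of the gated cells of cko 1 and 42.5% of those of cko 3. Only 1 of the other 14 pairs of samples shared any, ctr 1 and ctr 2 with 1 clonotype of 1 and 23 cells. In cko 1, 12 of 15 expanded but 15 of 65 single paired clonotypes were also found in cko 3, and in cko 3, 9 of 13 expanded and 16 of 89 single clonotypes were found in cko 1. Gated cells of the 2 libraries were no copies of each other by barcode, since any pair of libraries shared at most 1 gated barcode. The files do not settle whether cko 1 and cko 3 are separate animals, so leading counts are also given with them added together. The log2 changes, SEs and adjusted p-values of single genes below take them as separate samples. If they are 1 animal, those p-values count it more than once.

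Ctcf, the targeted gene, was detected in every sum, and gave no check of the labels because the deleted exons are not known. It stood at 79.7, 86.7 and 91.4 CPM (counts scaled to a common library total) in the expanded and at 70.4, 85.8 and 88.4 CPM in the single class of ctr 1 to 3, and at 49.2, 111 and 54.8 CPM against 60.4, 76.3 and 68.7 CPM in cko 1 to 3. The log2 changes of expanded over single clonotypes, 0.08 in ctr and -0.00 in cko, did not pass the test used below for all genes.

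Foxp3 is 1 of the 5 gate transcripts, so its share in gated cells is partly set by the gate and is given as a description. A Foxp3 UMI was found in 30.2%, 33.7% and 24.1% of expanded cells of ctr 1 to 3, against 34.0%, 37.8% and 35.2% of single cells. In cko the shares were 26.1%, 57.7% and 36.8% of expanded and 26.7%, 37.97% and 34.6% of single cells. Among CD8 T cells, which should lack it, the shares were 0.616% to 1.23%, at a greater median depth (6985 to 8794 UMIs per cell against 5828 to 6975 in gated cells). Of the expanded clonotypes, 11 of 34, 6 of 34 and 14 of 42 in ctr and 8 of 15, 0 of 7 and 4 of 13 in cko had no Foxp3 UMI in any gated cell. They held 34 of 172, 27 of 202 and 50 of 262 expanded cells in ctr, and 33 of 69, 0 of 26 and 23 of 68 in cko, nearly as many cells as the remaining clonotypes in cko 1. The largest was a TRBV10–TRBJ2-5 clonotype shared by cko 1 (9 cells) and cko 3 (13 cells). Its Ikzf2 level was 98.3 and 121 CPM, against 473 and 559 CPM in the TRBV20–TRBJ2-5 clonotype that the same samples shared. That clonotype, with 14 and 10 cells, carried Foxp3 at 146 and 113 CPM. Ikzf2 and Foxp3 are both gate transcripts, so these levels are a description only. The TRBV10–TRBJ2-5 receptor was also found in 14 of 33 and 7 of 30 CD4 cells without any of the 5 gate transcripts, so it is called Treg here by the gate alone. The same holds in cko 1 for a TRBV1–TRBJ2-5 clonotype, with 5 gated and 19 marker-free of 32 CD4 cells, and a TRBV3–TRBJ1-4 clonotype, with 4 gated and 11 marker-free of 23. With only the expanded clonotypes that had a Foxp3 UMI, a choice made after the data were seen, 9 genes passed in ctr, 146 in cko and 27 in the difference by the test used below.

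The comparison within ctr asks what sets an expanded Treg clone apart from single clones in a tumour with Ctcf intact. The UMI counts of each class were added up within a sample, giving 12 sums of 291188 to 1939219 UMIs, and compared within each sample with edgeR's quasi-likelihood test. Very few genes passed in ctr. With Benjamini-Hochberg adjustment over 8895 genes, 5 (0.0562%) had an adjusted p under 0.05, 2 higher (0.0225%) and 3 lower (0.0337%) in expanded clonotypes, and 400 (4.50%) had an unadjusted p under 0.05. Of all genes, 29.3% moved in 1 direction in all 3 ctr samples. The count was 4, 3 and 0 without ctr 1, 2 and 3 and 21 without cko 2, which shares the estimate of the spread. The genes that fell in expanded clones were the cytokine Lta, the chemokine Cxcl10 and Il2, and those that rose were the checkpoint receptor Tigit and Cst3.

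Lta (ENSMUSG00000024402, GRCm38 chromosome 17, 35203165 to 35205351, minus strand) encodes lymphotoxin alpha. It stood at 41.3, 136 and 109 CPM in the expanded and at 78.0, 306 and 264 CPM in the single class of ctr 1 to 3. Every ctr sample was lower in its expanded class, although ctr 1 lay low in both. The log2 change was -1.15 (SE 0.13, adjusted p = 0.000237). In ctr 2, 1 single cell gave 233 of the 435 Lta UMIs. Where a Foxp3 UMI was required in every cell, the log2 change was 0.01 for Lta and 0.35 for Cxcl10. The expanded sums of that fit held only 31, 43 and 34 cells of ctr 1 to 3.

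Cxcl10 (ENSMUSG00000034855, chromosome 5, 92346638 to 92348889, minus strand) encodes an interferon-induced chemokine that draws Cxcr3-bearing cells. It stood at 17.0, 126 and 85.0 CPM in expanded and at 36.5, 232 and 153 CPM in single clonotypes, with a log2 change of -0.90 (SE 0.14, adjusted p = 0.0125). Samples differed more from each other than the classes did, and the fall lay within each sample. In each of the ctr sums, 3 cells gave 40.4% to 73.9% of the Cxcl10 UMIs. Il2, the T cell growth factor that Treg cells normally do not make, gave 2 UMIs in all expanded and 59 in all single ctr cells. The ratio of single to expanded was 39.5 with a 95% counting interval from 10.5 to 334. A single cell held 43 of the 44 UMIs of the single class in ctr 3 and another 14 of the 15 in ctr 2, and ctr 1 had none. Of 8 tested transcripts of conventional CD4 cells, 7 lay below 0 (median -0.49) and Il2 alone was called. Summed markers of those cells ranged from 756 to 1152 CPM in expanded and from 949 to 1274 CPM in single sums of ctr. Most of each sum was Bhlhe40, at 683 to 1006 CPM in expanded and 804.5 to 1030 CPM in single sums. Cd40lg stood at 13.6, 23.65 and 21.7 CPM in expanded and at 21.1, 42.7 and 51.4 CPM in single clonotypes. The part of conventional CD4 cells in the falls of Lta and Il2 was not tested.

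Tigit (ENSMUSG00000071552, chromosome 16, 43648867 to 43664146, minus strand) stood at 990, 874 and 829 CPM in expanded and at 735, 595 and 525 CPM in single clonotypes of ctr. Each expanded value exceeded each single value, and the log2 change was 0.55 (SE 0.10, adjusted p = 0.0490). Among the 18 ctr clonotypes of at least 9 cells, Tigit ranged from 343 to 1427 CPM around a median of 984 CPM. In clonotypes of 2 cells it stood at 949, 838 and 566 CPM.

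**Figure D2:**
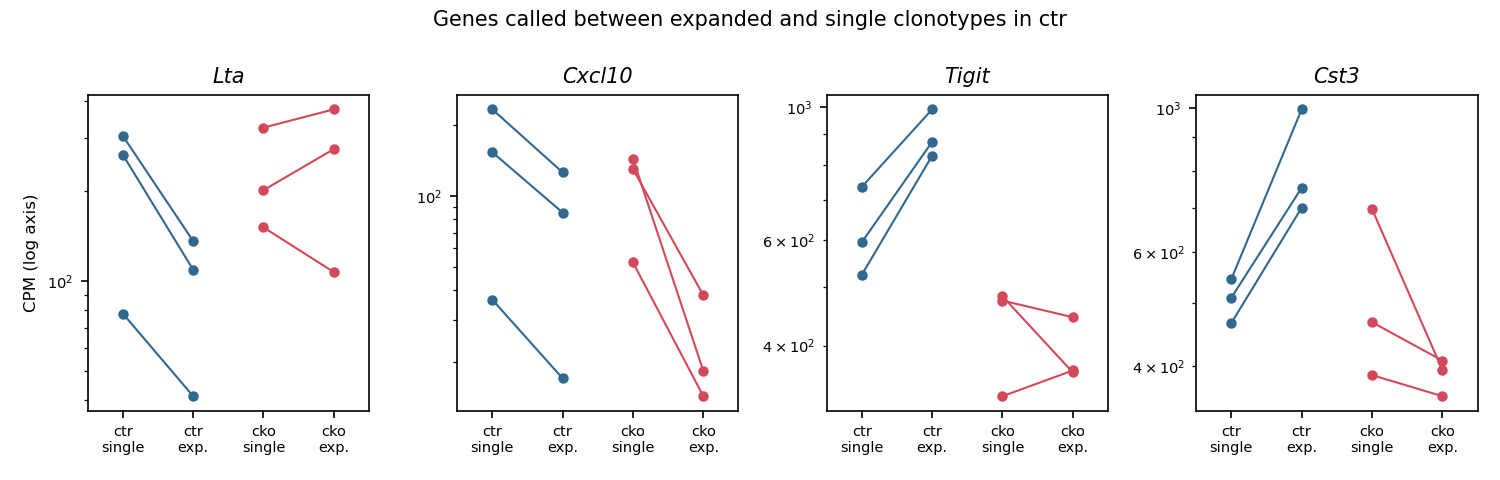
CPM on a log axis (y) of 4 genes called in ctr, in the single and expanded sums of each sample (x; blue ctr, red cko), with a line joining the sums of 1 sample. In all 3 ctr samples Lta and Cxcl10 are lower and Tigit and Cst3 higher in the expanded sum.

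Cst3 (ENSMUSG00000027447, chromosome 2, 148871722 to 148875692, minus strand), which encodes the protease inhibitor cystatin C and is abundant in macrophages and dendritic cells, stood at 994, 753 and 701 CPM in expanded and at 544, 510 and 466 CPM in single ctr clonotypes (log2 0.67, SE 0.11, adjusted p = 0.0229). The excess sat in a few cells. Only 5 of 172, 4 of 202 and 4 of 262 expanded cells held at least 2000 CPM, and these gave 61.4%, 37.8% and 39.1% of all Cst3 UMIs of their class. The other cells stood at 390, 486 and 432 CPM in expanded and at 393, 430 and 445 CPM in single clonotypes, a split made after the values were seen. Without the cells of highest Scrublet score, a measure of likely doublets, the log2 change was 0.01 (adjusted p = 1.0). Summed macrophage and monocyte transcripts ranged from 715 to 1834 CPM in expanded and from 536 to 2081 CPM in single sums of ctr, and dendritic cell markers from 2.15 to 10.3 and from 1.69 to 21.0 CPM. Of a longer list of 18 macrophage and monocyte transcripts, 9 lay above 0 and 9 below, and none was called. The 3 that rose in all 3 ctr samples were Cd74, H2-Ab1 and H2-Eb1, genes of antigen presentation, and Arg1 fell in all 3. A rise of 3 in 18 lies near the share over all genes, 15.5%, that rose in all 3 ctr samples. Cd74 rose by 0.32, 0.23 and 0.72 on the log2 scale. The part of such cells in the rise of Cst3 was not tested.

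Other genes of tumour Treg cells did not pass in ctr. Ccr8, a chemokine receptor of tumour Treg cells, stood at 801 ± 181 and 667 ± 204 CPM in expanded and single clonotypes (SD, n = 3; log2 0.28, adjusted p = 0.908). Tnfrsf9, the costimulatory receptor 4-1BB, stood at 1602 ± 248 and 1275 ± 191 CPM (0.33, adjusted p = 0.744), and Pdcd1 at 573 ± 19.5 and 453 ± 69.6 CPM (0.35, adjusted p = 0.767). Areg, a growth factor of tissue-repair Treg cells, stood at 1101 ± 501 and 609 ± 88.9 CPM (0.77, adjusted p = 1.0), and among the ctr clonotypes of at least 9 cells it ran from 92.4 to 3667 CPM. Of 23 tumour effector Treg genes, 19 lay above 0 with a median of 0.13, and only Tigit was called. The median over all genes was 0.01.

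The comparison within cko asks the same of Treg cells after the Ctcf knockout. Here 174 of 8895 genes (1.96%) passed, 104 higher (1.17%) and 70 lower (0.787%), 33.2% of all genes moved in 1 direction in all 3 samples, and 96 passed with cko 1 and cko 3 added together. Genes of DNA replication rose in expanded clones, and genes of resting and recirculating T cells, interferon response genes and Izumo1r fell. The count moved with single libraries: it was 96 without cko 1, 324 without cko 2 and 61 without cko 3. It was 69 without the cells of highest Scrublet score, 40 without the largest clonotype of each sample and 8 after thinning each cell to 2000 UMIs.

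Of 24 proliferation genes 8 rose and none fell, with a median of 0.75 against -0.02 over all genes. Rrm2 (ENSMUSG00000020649, chromosome 12, 24708241 to 24714146, plus strand) encodes a subunit of ribonucleotide reductase, which makes DNA precursors. It stood at 60.3, 367 and 64.6 CPM in expanded and at 10.1, 110 and 20.1 CPM in single clonotypes of cko 1 to 3 (log2 1.82, SE 0.19, adjusted p = 1.97e-05). All 3 samples rose, and cko 2 was high in both classes. The single values rest on 5 UMIs in 2 cells of cko 1 and 17 UMIs in 4 cells of cko 3. The replication clamp Pcna rose by 0.83, thymidylate synthase Tyms by 1.17, Rrm1 by 1.01, and the helicase subunits Mcm5 and Mcm6 by 0.83 and 0.81 on the log2 scale (adjusted p from 0.00297 to 0.0207). Mki67, a marker of dividing cells, did not pass in either genotype (log2 0.70, adjusted p = 0.063 in cko and -0.43, adjusted p = 0.844 in ctr). It stood at 68.2, 260 and 75.8 CPM in expanded and at 26.2, 198 and 42.6 CPM in single cko clonotypes, and at 119, 61.5 and 85.6 against 137, 114 and 100.3 CPM in ctr, where every sample was lower in its expanded class. The share of cells with an Mki67 or Top2a UMI did not fall alike. It was 39.5%, 30.2% and 32.8% of expanded against 30.7%, 35.0% and 28.3% of single cells in ctr 1 to 3. In cko 1 to 3 it was 30.4%, 42.3% and 36.8% against 18.7%, 36.7% and 31.7%.

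Histone genes led the list by size: Hist1h2af (log2 3.57), Hist1h2bk (1.85), Hist1h2ab (1.80), Hist1h2ae (1.59) and Hist1h1b (1.57), beside Nmral1 (1.70). Histone genes lie in clusters of similar copies, and whether reads were split among them was not tested, so their single values are uncertain. Hist1h2af stood at 7.93, 173 and 7.02 CPM in expanded and at 4.03, 10.2 and 2.37 CPM in single clonotypes, so its mean was set by cko 2. There, 3 of 26 expanded cells gave 96.0% of its 50 UMIs. Without cells carrying Mki67 or Top2a, a fit that left out cko 2, Hist1h1b went to -0.80 and 22 genes passed in all. Mki67, Top2a and Hist1h1b all belong to the proliferation list, so this filter takes out dividing cells and is no independent check of it.

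Other genes that rose in expanded cko clones were Lgals1, a galectin of effector Treg cells (3937 ± 711 against 2475 ± 89.9 CPM; log2 0.66, SE 0.11, adjusted p = 0.0017), and Cd5, a brake on receptor signalling (602 ± 59.9 against 444 ± 25.0 CPM; 0.44, SE 0.10, adjusted p = 0.0275). The granule gene Nkg7 rose by 0.52 (adjusted p = 0.0295). Of 20 glycolysis and hypoxia genes 3 rose and none fell (median 0.23): the glycolytic enzyme genes Pgam1 (0.60), Eno1 (0.45) and Pkm (0.42).

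Of 17 genes of resting and central memory cells 5 fell and none rose, with a median of -0.63. Ccr7 (ENSMUSG00000037944, chromosome 11, 99144196 to 99155077, minus strand), the receptor that guides cells to lymph nodes, stood at 179, 152 and 122 CPM in expanded and at 365, 247 and 287 CPM in single clonotypes. The classes did not overlap (log2 -1.01, SE 0.13, adjusted p = 0.000165). The share of cells with a Ccr7 UMI did not fall alike. Such cells were 16 of 69, 5 of 26 and 11 of 68 in expanded clonotypes of cko 1 to 3. In single clonotypes they were 12 of 75, 53 of 158 and 18 of 104. In the single class, 1 cell gave 57 of 181 UMIs in cko 1 and 114 of 242 in cko 3. Klf2, a factor that keeps the exit programme on, stood at 68.2, 176.6 and 66.0 CPM against 149, 364 and 122 CPM (log2 -1.02, SE 0.14, adjusted p = 0.000675). S1pr1, the receptor for leaving tissue, had a log2 change of -1.40 (adjusted p = 0.0454). Ly6c1 gave 3 UMIs in expanded and 80 in single cko cells, a ratio of single to expanded of 15.3 with a 95% counting interval from 5.06 to 75.9 that takes UMIs as independent. They were not spread over cells: 1 cell gave 17 of 28 single UMIs in cko 1, 13 of 26 in cko 2 and all 26 in cko 3, where 3 of 68 expanded and 1 of 104 single cells carried it. Il2 gave 0 and 59 UMIs, at least 11.3-fold higher in single cells when 3 counts over the group are taken as the floor. These UMIs came from 3, 3 and 4 single cells of cko 1 to 3, and 1 cell gave 14 of 23 in cko 1 and 22 of 29 in cko 2. With clone size counted over all receptor cells, the log2 change of Il2 in cko was 1.88 (adjusted p = 0.598).

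Izumo1r (ENSMUSG00000031933, chromosome 9, 14885814 to 14903949, minus strand) encodes the folate receptor family protein FR4 of Treg and anergic CD4 cells. It stood at 36.5, 45.0 and 59.0 CPM in expanded and at 86.6, 137 and 136 CPM in single cko clonotypes (log2 -1.32, SE 0.16, adjusted p = 0.000121). All expanded values lay below all single values. Cd27 (ENSMUSG00000030336, chromosome 6, 125232622 to 125237010, minus strand), a costimulatory receptor, stood at 30.2, 10.4 and 14.04 CPM against 62.4, 78.2 and 53.3 CPM (-1.72, SE 0.28, adjusted p = 0.00179). The expanded values rest on 19, 3 and 10 Cd27 UMIs. Where a Foxp3 UMI was required in every cell and clone sizes were recounted, which left out cko 2, the log2 change was -0.12 for Izumo1r, -0.00 for Ccr7 and -0.98 for Cd27, with adjusted p = 0.929, 1.0 and 0.373. The expanded sums of that fit held only 13 cells in 2 clonotypes of cko 1 and 16 cells in 4 clonotypes of cko 3.

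**Figure D3:**
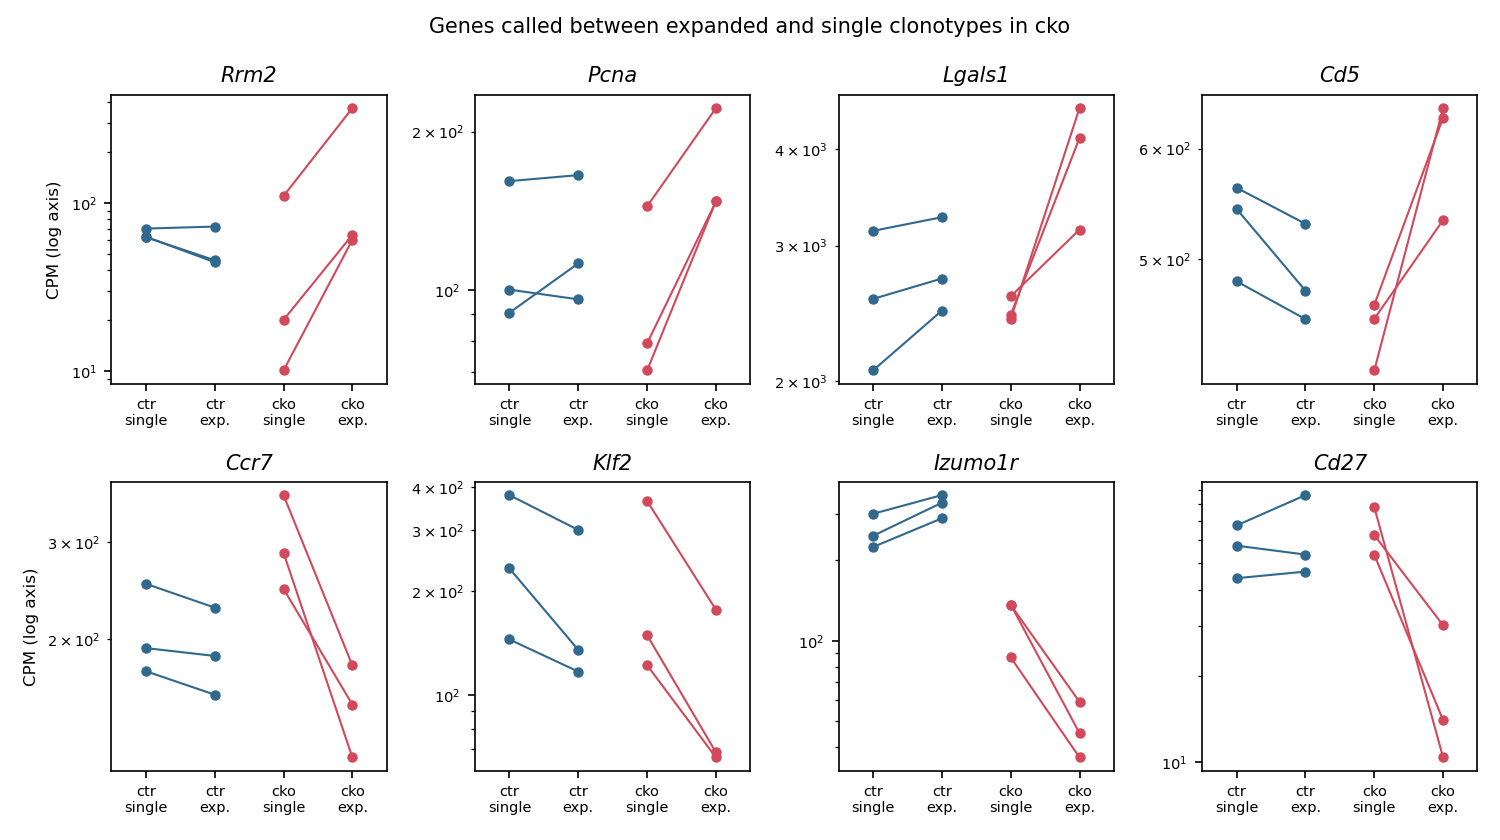
CPM on a log axis (y) of 8 genes called in cko, in the single and expanded sums of each sample (x; blue ctr, red cko), with a line joining the sums of 1 sample. In all 3 cko samples Rrm2, Pcna, Lgals1 and Cd5 are higher and Ccr7, Klf2, Izumo1r and Cd27 lower in the expanded sum.

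Of 24 type I interferon response genes 6 fell and none rose in cko, with a median of -0.64. Isg15, a ubiquitin-like protein, stood at 421, 135 and 305 CPM in expanded and at 731, 261 and 493 CPM in single clonotypes (log2 -0.79, SE 0.11, adjusted p = 0.000725). The regulator Irf7 fell by 0.86 and Ifi27l2a by 0.62 on the log2 scale (adjusted p = 0.00146 and 0.000873). Cxcl10 was the gene of lowest adjusted p, at 14.3, 38.1 and 18.3 CPM in expanded and 52.4, 130 and 143 CPM in single clonotypes (-2.32, SE 0.23, adjusted p = 1.3e-05). The expanded values rest on 9, 11 and 13 Cxcl10 UMIs in 6, 3 and 7 cells. Of 23 interferon gamma response genes 4 fell, among them the guanylate-binding protein genes Gbp9 and Gbp2 and the GTPase gene Ifi47, by 0.87, 0.91 and 0.59. With clone size counted over all receptor cells, the log2 change of Gbp2 in cko was 0.339. Tyrobp, a signalling adaptor of myeloid and NK cells, fell by 1.53 (adjusted p = 0.00812), and in cko 2 its 13 expanded UMIs came from 1 cell. Summed macrophage and monocyte transcripts ranged from 245 to 535 CPM in expanded and from 314 to 800 CPM in single sums of cko. Their part in these falls was not tested.

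Of 23 TCR response genes 2 fell, Nr4a2 by 0.69 and Tnfaip3 by 0.53 on the log2 scale (adjusted p = 0.00812 and 0.0214), 1 rose (Cd5, above) and 20 did not pass. The checkpoint receptor Lag3 fell by 0.70 (adjusted p = 0.0275), but with clone size counted over all receptor cells the log2 change of Lag3 in cko was 0.0203. Of 20 dissociation stress genes 4 fell (Dnajb1, Dusp1, Junb and Jun, by 0.43 to 0.80) and none rose. Arl5c (-2.24), Ldlrad4 (-1.90) and Gm20186 (-1.59) were among the lower genes of largest change. Of 16 tested Treg identity genes outside the gate only Izumo1r was called. Ccr8 (log2 0.22, adjusted p = 0.410), Ctla4 (-0.18, 0.592), Areg (-0.63, 0.485) and Gzmb (0.23, 0.923) did not pass in cko.

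**Figure D4:**
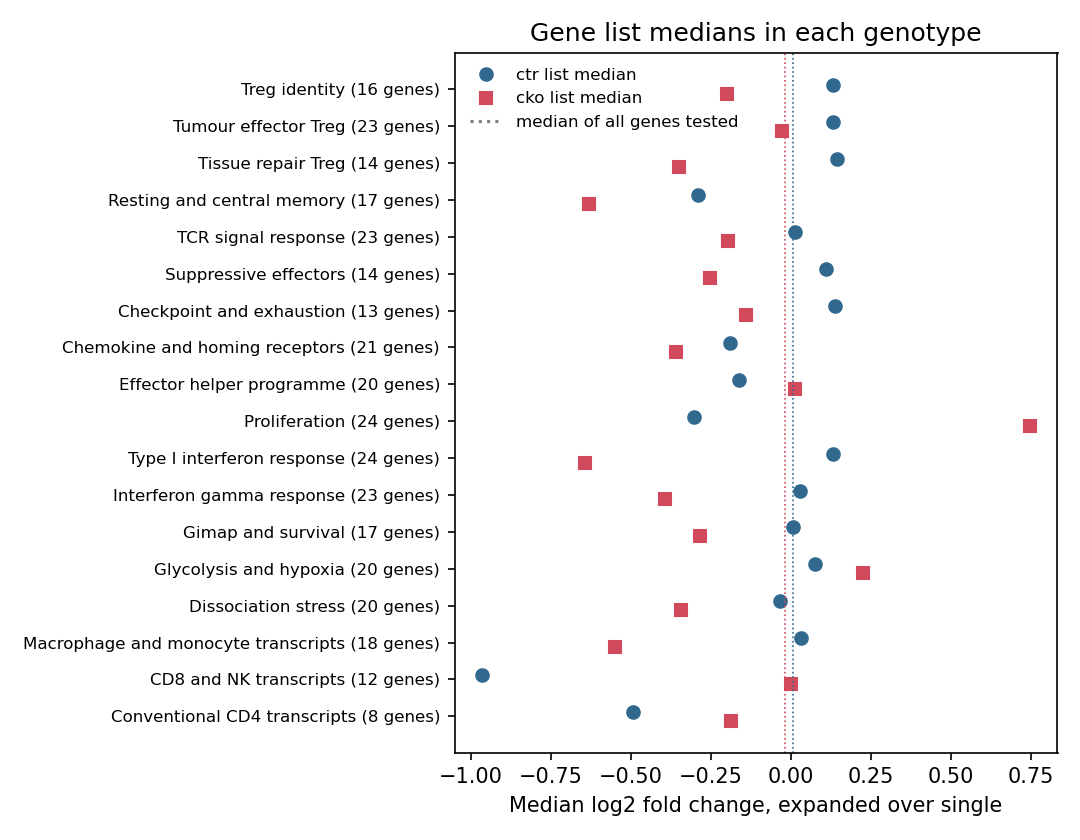
Median log2 fold change of expanded over single clonotypes (x axis) of the tested members of each gene list (y axis) in ctr (circles) and cko (squares), with dotted lines at the median of all genes tested. The proliferation list lies at -0.30 in ctr and 0.75 in cko, and the type I interferon list at 0.13 and -0.64.

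The difference between the cko effect and the ctr effect was tested in the same fit. It passed for 38 genes (0.427%), 20 with a higher (0.225%) and 18 with a lower (0.202%) effect in cko, and for 39 with cko 1 and cko 3 added together. The effect on Izumo1r differed by -1.65 (SE 0.19, adjusted p = 0.000107): the 3 ctr samples moved by 0.36, 0.41 and 0.23 and the cko samples by -1.21, -1.57 and -1.18 on the log2 scale. In ctr its level was 288, 329 and 352 CPM in expanded and 225, 248 and 299 CPM in single clonotypes. With a Foxp3 UMI required in every cell, the difference in Izumo1r was 0.11 (adjusted p = 0.958). That fit left out cko 2 and held only 13 and 16 expanded cells of cko 1 and cko 3. Rrm2 differed by 2.12 (SE 0.25, adjusted p = 0.000107), and 5 of 24 proliferation genes, Rrm2, Hist1h1b, Rrm1, Tyms and Mki67, had a higher effect in cko. All 24 had a difference above 0. Of 24 type I interferon genes 3 (Isg15, Irf7 and Ifi27l2a) had a lower effect in cko and all 24 a difference below 0, with a median of -0.72 against -0.03 over all genes. Isg15 moved by 0.38, 0.37 and 0.03 in ctr and by -0.80, -0.94 and -0.69 in cko. Tigit differed by -0.69 (adjusted p = 0.0499). The count of genes was 5 without the cells of highest Scrublet score, 1 after thinning and 215 without cko 2.

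Values on either side of the threshold of 3 cells were as follows. In clonotypes of 2 cells, just outside it, Ccr7 stood at 59.5, 199 and 238 CPM in cko, and in those of 3 cells, just inside, at 242, 179 and 23.4 CPM. Lgals1 stood at 2754, 4781 and 2873 CPM in cko clonotypes of 2 cells and at 3497, 3432 and 2971 CPM in those of 3 cells. In ctr, Lta stood at 43.1, 127 and 158 CPM in clonotypes of 2 cells and at 48.4, 152 and 128 CPM in those of 3 cells. The classes on either side of the threshold overlapped for each of these genes.

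No difference in depth or CDR3 length passed the test, which takes cko 1 and cko 3 as separate samples. Median UMIs per cell differed by 439 ± 942 on average (SD of the differences, n = 6, higher in 4 of 6; exact two-sided permutation p = 0.3125), and the mean TRB CDR3 by -0.22 ± 1.05 bases (higher in 3 of 6; exact p = 0.625). The smallest p that 6 pairs allow is 0.03125. In cko, expanded cells were deeper in all 3 samples, at medians of 7600, 6875 and 7067 against 5465, 6144 and 6608 UMIs. In ctr 1 to 3 the medians were 5814, 6897 and 5745 against 5751, 7310 and 6084 UMIs. The part of depth in the genes called in cko was not tested apart from the thinning above. Cells without a TRA chain were more frequent among singles, 12.7% to 16.0% in cko against 2.90% to 3.85% of expanded cells, and a cell that lacks a chain can be set apart from its clone. With exactly 1 TRA and 1 TRB chain per cell, 5 genes passed in ctr, 304 in cko and 137 in the difference.

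CD4 cells of a Treg clonotype without any of the 5 gate transcripts were counted next. Such a marker-free cell was found in 17.6%, 11.8% and 16.7% of expanded clonotypes of ctr 1 to 3 and in 60.0%, 0% and 30.8% of those of cko 1 to 3 (exact two-sided permutation p = 0.5). The 0% comes from 7 clonotypes and has an exact upper limit of 41.0%. Single clonotypes had one in 2.67%, 1.40% and 3.14% in ctr and 10.7%, 6.96% and 18.3% in cko, where all cko values lay above all ctr values (exact p = 0.1, the smallest that 3 against 3 allows). Both tests take cko 1 and cko 3 as separate samples although they share clones, some with marker-free cells in both. Without cko 1 the difference of the means in expanded clonotypes fell from 14.9 to 0.025 percentage points. A clonotype of more cells has more chances to hold a marker-free cell. Among all CD4 cells of the expanded clonotypes, marker-free cells were 5.3%, 1.7% and 4.1% in ctr and 35.9%, 0% and 21.2% in cko. In single clonotypes they were 2.9%, 2.0% and 5.1% in ctr and 20.2%, 9.9% and 27.0% in cko. The class is set by gated cells, so both shares are a description between classes. Marker-free cells of expanded clonotypes were shallower than the gated cells in each of the 5 samples that had them, with medians of 5017 against 5814, 5268 against 6897 and 3682 against 5745 UMIs in ctr 1 to 3, 6333 against 7600 in cko 1 and 6628 against 7067 in cko 3. Marker-free cells of single clonotypes were deeper than the gated cells in ctr 1 (7454 against 5751 UMIs) and ctr 3 (8430 against 6084). They were also deeper in cko 1 (6442 against 5465) and cko 2 (6478 against 6144). In ctr 2 (6534 against 7310) and cko 3 (6076 against 6608) they were shallower. The part of depth in these shares was not tested.

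**Figure D5:**
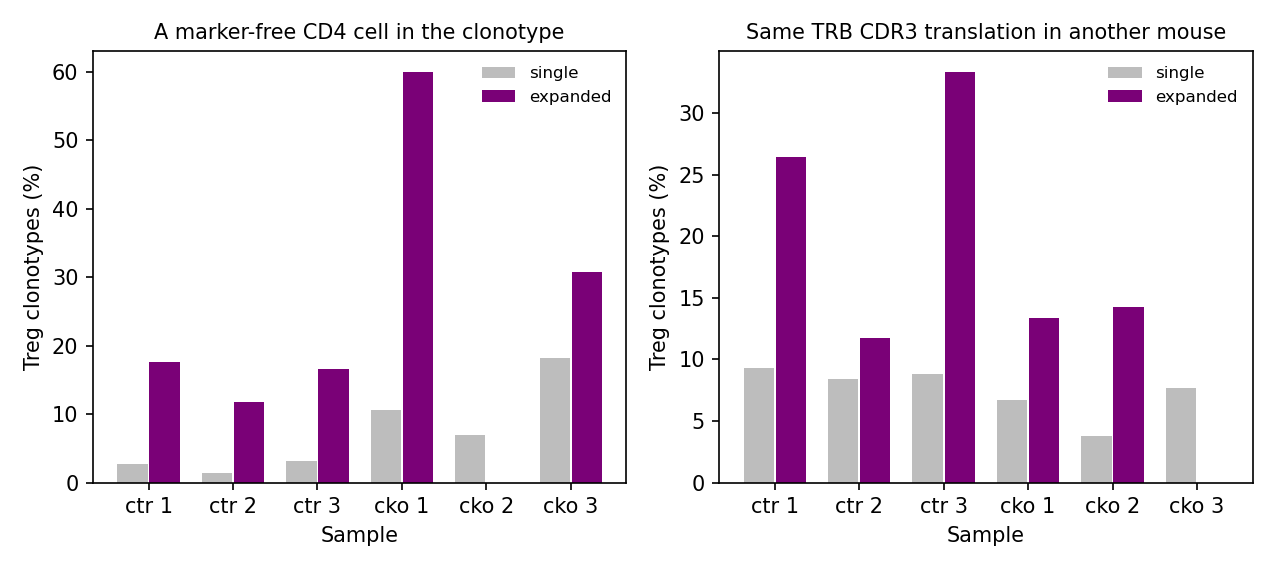
Share of single (grey) and expanded (purple) Treg clonotypes (y axes, %) in each sample (x axes) with a marker-free CD4 cell (left) and with the same TRB V, J and CDR3 translation in another mouse (right). Marker-free cells were found in 60.0% of expanded clonotypes of cko 1 and in none of the 7 of cko 2. Clonotypes of more cells have more chances to hold one.

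Marker-free cells of Treg clonotypes are described by a few other genes, chosen from a longer list. In cko 1 and cko 3 they held Ifng at 504 and 387 CPM, against 140 and 145 CPM in gated cells, and Cxcr6, a residency receptor, at 1050 and 1061 CPM against 593 and 580 CPM. Cd40lg, the helper ligand, stood at 247 and 280 CPM against 101.6 and 97.1 CPM. Marker-free cells of other clonotypes in these samples had Ifng at 159 and 160 CPM and Cxcr6 at 656 and 693 CPM. Their Cd40lg, at 326 and 331 CPM, lay above that of the Treg clonotypes. In the marker-free cells of Treg clonotypes, Ccr8 stood at 585 and 649 CPM against 458 and 510 CPM in gated cells. Ctla4 stood at 691 and 759 CPM against 1453 and 1432 CPM. In the other samples, with 7 to 23 such cells, Ifng stood at 176, 81.7, 154 and 114 CPM against 32.6, 62.9, 154 and 37.97 CPM in gated cells of ctr 1, 2 and 3 and cko 2. Cxcr6 was lower in the marker-free cells of ctr 3 (609 against 665 CPM), and Cd40lg in those of ctr 2 (27.3 against 29.8 CPM). These levels were not tested, and cko 1 and cko 3, with 86 and 95 such cells, share clones.

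The same receptor beta chains arose in different mice. Taking cko 1 and cko 3 as 1 mouse, 107 of 1060 Treg clonotypes had the same TRB V gene, J gene and CDR3 translation as a Treg clonotype of another mouse, 98 of them with other nucleotides. The share was 26.5%, 11.8% and 33.3% of expanded clonotypes of ctr 1 to 3 and 13.3%, 14.3% and 0% of those of cko 1 to 3. Among single clonotypes it was 9.33%, 8.39% and 8.81% in ctr and 6.67%, 3.797% and 7.69% in cko. The share was higher among expanded clonotypes in 5 of 6 samples (exact two-sided permutation p = 0.125), a test that counts cko 1 and cko 3 separately although they share clones. The measure was chosen after the data were seen, and the cko shares of expanded clonotypes rest on 2, 1 and 0 clonotypes. The receptor found in most clonotypes joined TRBV1 to TRBJ2-3 and occurred in 8 nucleotide forms in ctr 1, ctr 2, ctr 3 and cko 2. The forms with most cells are shown because they encode 1 chain by different bases, and capitals mark a base that differs from the commonest one at its position.
ctr 1 and ctr 2, 24 cells: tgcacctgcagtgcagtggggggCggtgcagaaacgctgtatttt
ctr 3, 5 cells: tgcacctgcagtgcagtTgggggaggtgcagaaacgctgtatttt
ctr 1, 4 cells: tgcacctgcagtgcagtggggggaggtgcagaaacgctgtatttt
ctr 3, 3 cells: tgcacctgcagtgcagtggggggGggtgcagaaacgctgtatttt
cko 2, 1 cell: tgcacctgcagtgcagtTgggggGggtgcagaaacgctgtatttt

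A second TRBV1–TRBJ2-3 chain of the same length, 45 bases, occurred in 5 forms in ctr 1, ctr 2, ctr 3 and cko 3. Its forms differ from each other within the join.
ctr 3, 9 cells: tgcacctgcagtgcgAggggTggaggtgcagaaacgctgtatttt
ctr 1, 3 cells: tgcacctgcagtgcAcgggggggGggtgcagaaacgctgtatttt
cko 3, 1 cell: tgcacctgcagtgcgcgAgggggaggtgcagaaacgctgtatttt

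The alpha chains paired with both beta chains were also alike, although alpha chains played no part in finding them. Of 14 clonotypes with an alpha chain, 12 used TRAV6N-7 with TRAJ23, against 3 of 977 among all other Treg clonotypes with one. All 12 had an alpha CDR3 of 42 bases, in 5 nucleotide forms, of which 3 are shown with capitals at bases that match neither segment.
ctr 2, 23 cells: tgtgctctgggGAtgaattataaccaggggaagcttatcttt
ctr 3, 9 cells: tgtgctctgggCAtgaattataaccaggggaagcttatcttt
ctr 3, 5 cells: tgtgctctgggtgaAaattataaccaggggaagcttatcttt
Of the 15 clonotypes with either beta chain, 6 were expanded, and together they held 57 gated cells in 5 samples.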

How the data were processed

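The authors deposited raw UMI counts per gene and barcode and tables of assembled TCR contigs with UMI and read counts for each of the 6 samples, made with Cell Ranger 7.0.0 on GRCm38 (mm10), per the submitters' processing notes. No source used here says whether doublets or free RNA were removed upstream.

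The filters on barcodes were a minimum of 300 genes, a minimum of 500 UMIs and a ceiling of 10% mitochondrial UMIs. Clonotypes are those of the deposited contig tables. Clonotypes of different samples were called shared where V, J and CDR3 nucleotides matched in both chains. Counts were summed per sample and class without 660 receptor and immunoglobulin genes, and fitted in R 4.3.3 with edgeR 4.0.16 (TMM scaling, filterByExpr, robust quasi-likelihood) with the sample as block and an expanded effect per genotype, leaving 4 residual degrees of freedom. P-values were adjusted by Benjamini-Hochberg over 8895 genes at 0.05, leaving out the gate genes, whose values the gate fixes. CPM values are TMM-scaled in sums and plain per clonotype or cell class. DESeq2 1.42.0 was an alternative. The fit was tested on simulated data. Replicate numbers are shared by ctr and cko labels but nothing says that they pair animals. Single samples' shares have exact binomial intervals at 95%, which cover counting error only. Doublets were left in, and cells of highest Scrublet score (0.8% per 1000 barcodes) were removed in an alternative. Kept cells had a median of 5205 to 8149 UMIs per sample.

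Named genes are a fixed list of key genes, up to 8 genes per direction with the largest change among those called with a mean of at least 20 CPM and 1 direction in all samples, and up to 4 called members of each of the gene lists. The members, gene lists and tests were chosen with earlier results of these data known. Some genes that this rule names are not reported here.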

Additional observations from a re-analysis of the deposited data

Results flagged for a closer look

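These results are listed because the effect of clone expansion differed between the genotypes by the test of the difference itself (edgeR's quasi-likelihood test, adjusted p under 0.05), as log2 differences of the cko effect minus the ctr effect. Lower effects in cko were found for the costimulatory receptor Cd27 (-1.84), Izumo1r (-1.65), the ectoenzyme Nt5e (-1.49), Cxcl10 (-1.42), Oas1a (-1.28), Rgs10 (-1.21), Gstt2 (-1.18), Mndal (-1.10), Nr4a2 (-1.08), Lag3 (-1.07), Irf7 (-1.06), Isg15 (-1.04), Ccr7 (-0.895), Bcl2a1b (-0.688), Tigit (-0.685) and Ifi27l2a (-0.658). Higher effects were found for the proliferation genes Mki67 (1.13), Tyms (1.32), Rrm1 (1.73) and Rrm2 (2.12) and for the histone genes Hist1h2ao (1.65), Hist1h1b (1.74), Hist1h1d (1.83), Hist1h2ab (2.00) and Hist1h2af (4.24). Whether reads were split among similar histone copies was not tested.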

How the results depend on the processing

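Counts of called genes are given as ctr, cko and difference, against 5, 174 and 38. DESeq2 gave 1, 65 and 20, and no filter on low counts 31, 329 and 156. Expanded from 2 cells gave 3, 319 and 117, and from 5 cells, without cko 2, 18, 495 and 317. Clone size over all receptor cells gave 295 in cko and 62 in the difference, 1 TRA and 1 TRB chain 304 and 137, and a Foxp3 UMI in every cell, without cko 2, 110 and 18. Without the highest Scrublet scores there were 2, 69 and 5, without the largest clonotype 1, 40 and 15, with at most 3 cells per clonotype 3, 28 and 8, without Mki67 or Top2a cells, and without cko 2, 10, 22 and 21, and with cko 1 and 3 added together 8, 96 and 39. Thinned to 2000 UMIs, cko gave 8 and the difference 1. Fitted separately, ctr gave 35 and cko 72. Leaving out 1 sample in turn gave 0 to 21, 61 to 324 and 10 to 215. In 2 alternatives chosen after seeing the data, keeping only expanded clonotypes with a Foxp3 UMI gave 9, 146 and 27, and leaving out the expanded clonotypes of at least 2000 CPM of Cst3 took Cst3 in ctr to -0.0327, which that choice brings about by construction.

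With no replicate block, that is without the sample in the design, 0 genes passed in ctr, cko and the difference. Letting the effect vary with the replicate number, a replicate block that the labels do not tie to animals, gave 39 in the difference. Across genes, the expanded effects of same-numbered ctr and cko samples correlated at 0.028, 0.028 and -0.0163 after the genotype means were taken off, and ctr 3 and cko 3 each correlated better with a sample of another number.

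Directions reversed for Lta in ctr (0.0126), Cxcl10 in ctr (0.349), Nkg7 in cko (-0.16) and Izumo1r in the difference (0.11) with a Foxp3 UMI required, and for Cst3 in ctr (-0.0212), Hist1h1b in cko (-0.80) and in the difference (-1.0) and Ifi209 in cko (0.0689) without Mki67 or Top2a cells. Clone size over all receptor cells reversed Lag3 in cko (0.0203), Il2 in cko (1.88) and Gbp2 in cko (0.34), and 1 TRA and 1 TRB chain took Il10 in difference to -8.03. With outside defined as no Foxp3 UMI, the difference in expanded clonotypes was -1.07 percentage points, against 14.9. The fit with a Foxp3 UMI required in every cell held only 31, 43 and 34 expanded cells in ctr 1 to 3. In cko 1 and cko 3 it held 13 and 16. Removing cells with Mki67 or Top2a takes out dividing cells, so it bears on Hist1h1b by the choice itself. The causes were not tested.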
